A study of Mus musculus with 12 samples.

Results

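Deep layers of the cerebral cortex hold the neurons that send axons out of the cortex, and 10 genes that mark them were followed here through frontal cortex of mice given clozapine or vehicle. The genes are Bcl11b, Fezf2, Etv1, Tbr1, Foxp2, Tle4, Syt6, Rprm, Ctgf and Nxph4. They are 10 of the 47069 genes in the count table, found there by gene identifier, and Ctgf is listed under its newer symbol Ccn2. They were chosen by symbol from a list that was drawn up with the levels and group differences of these same libraries known, Rprm first. Their levels and differences are therefore given as a description. Where they pass the threshold of the fit over all genes this is stated beside the share of all genes that did, and supports nothing.

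The study holds 12 RNA libraries of bilateral frontal cortex from male C57BL/6 mice, 3 in each of 4 groups. The groups are labelled Hdac2 conditional knockouts given clozapine (libraries 3, 4 and 5), labelled knockouts given vehicle (2, 4 and 5), wild type given clozapine (2, 3 and 5) and wild type given vehicle (1, 3 and 4). The knockout label reads HDAC2(loxP,loxP) with CamKIIa-Cre(+,-). In such mice the CamKIIa promoter drives Cre in forebrain excitatory neurons, so that glia, vessels and most interneurons keep an intact gene. Clozapine, an antipsychotic that binds many monoamine receptors, was given chronically at 10 mg/kg. Age, days of dosing and whether the wild-type mice carry loxP are not given in the sources used here. The labels do not say how the libraries of a group relate beyond their number, so the spread between them may be partly technical.

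Layer 5 neurons project to the brainstem, spinal cord and striatum, layer 6 neurons project to the thalamus, and the thin layer 6b below them is what remains of the embryonic subplate. Fezf2 and Bcl11b are transcription factors that specify layer 5 projections below the cortex, while Tbr1 specifies layer 6 and represses Fezf2 during development. In the adult cortex these genes stay on in their layers and serve as markers of them. By textbook use Bcl11b, Fezf2 and Etv1 are taken as layer 5 genes, Tbr1, Foxp2, Tle4, Syt6 and Rprm as layer 6 genes, and Ctgf and Nxph4 as layer 6b genes. Bcl11b and Foxp2 are also made by striatal neurons and Ctgf by vessels and meninges.

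Rprm, and the layer 6 genes Tle4 and Syt6 whose levels had a Pearson r of 0.93 across libraries, are shown with the bases just before their starts. Of these, only Rprm passed the threshold of the fit in any comparison. The sequences are the part of the RefSeq promoter windows (GRCm38.p6) that lies before the transcription start in both RefSeq and GENCODE, written 5' to 3' on the gene's strand. That is chr2:54085553-54085802 on the minus strand for Rprm, chr19:14598184-14598433 on the minus strand for Tle4 and chr3:103574995-103575230 on the plus strand for Syt6. Capitals mark the GC box, GGGCGG or its reverse CCGCCC.
Rprm: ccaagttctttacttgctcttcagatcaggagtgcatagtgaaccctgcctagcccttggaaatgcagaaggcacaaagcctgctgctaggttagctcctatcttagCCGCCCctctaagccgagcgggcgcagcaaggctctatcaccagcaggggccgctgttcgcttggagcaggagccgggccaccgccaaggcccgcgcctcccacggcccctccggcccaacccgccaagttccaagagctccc
Tle4: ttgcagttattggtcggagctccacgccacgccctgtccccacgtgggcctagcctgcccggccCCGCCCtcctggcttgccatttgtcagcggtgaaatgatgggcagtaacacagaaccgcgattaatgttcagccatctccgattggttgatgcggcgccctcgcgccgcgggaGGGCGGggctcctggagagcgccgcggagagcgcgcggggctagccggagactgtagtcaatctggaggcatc
Syt6: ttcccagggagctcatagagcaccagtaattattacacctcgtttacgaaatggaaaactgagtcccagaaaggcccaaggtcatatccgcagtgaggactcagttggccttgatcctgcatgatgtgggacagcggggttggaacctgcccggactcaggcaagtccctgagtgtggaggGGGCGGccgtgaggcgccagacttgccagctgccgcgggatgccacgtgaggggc

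The promoters are rich in G and C, 62.4% for Rprm, 65.2% for Tle4 and 58.9% for Syt6, where the median over 27025 mouse promoter windows of 250 bases was 52.0%. The stretches as printed hold 1 GC box for Rprm, 2 for Tle4 and 1 for Syt6. Promoter windows matched 7 of the 10 genes, and those of Foxp2, Ctgf and Nxph4 are not shown. In the full windows of 250 bases, searched on both strands, a GC box occurred in Fezf2, Tbr1, Tle4, Syt6 and Rprm and in 32.9% of all promoters. The T-box half-site AGGTGT occurred in Syt6 and in 12% of all promoters, and the forkhead letters TGTTTA in Tbr1 and in 12%. TATAAA (13% of all promoters), CAGATG (14.5%) and CCGGAA (12.2%) were not found in these 7 windows. Matches of different motifs did not overlap in these windows. A match or its absence describes the letters only.

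Total counts per library were 23408372 to 28069638, and the 10 genes took 0.0332% to 0.0487% of them. Hdac2 itself was at 70.5 to 76.6 CPM (counts scaled to library size) in the 6 labelled knockout libraries and at 63.4 to 75.7 CPM in the 6 wild-type libraries, a log2 difference of 0.04 (SE 0.04). It did not pass the test (edgeR quasi-likelihood, Benjamini-Hochberg adjusted p = 0.651). The counts cover the whole gene and do not check the loss of single exons, so the knockout is written as labelled throughout. All 22 further deep-layer genes examined and all 5 excitatory neuron markers (Slc17a7, Camk2a, Neurod6, Neurod2 and Nrgn, together 8011 to 9511 CPM) were present. In bulk tissue, fewer cells of a type and less RNA per cell cannot be told apart.

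2 libraries stood at the ends of the range for most of the 10 genes. Wild-type vehicle library 1 was the lowest of all 12 for 6 genes (Bcl11b, Foxp2, Tle4, Syt6, Rprm and Ctgf), and wild-type clozapine library 3 was the highest for 6 (Fezf2, Tbr1, Foxp2, Tle4, Syt6 and Etv1). Library 1 also had the highest summed level of 12 upper-layer genes, 1393 CPM, against 1105 to 1363 CPM in the other 11 libraries. Library 3 had the highest summed level of 5 red blood cell genes (Hba-a1, Hba-a2, Hbb-bs, Hbb-bt and Alas2), 437 CPM, against 122 to 303 CPM in the other 11. Where leaving out 1 of them moved a deep- or upper-layer result by over 1.5 times, the value without it, or the range over libraries left out in turn, is given beside that result. What sets the 2 libraries apart was not tested.

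**Figure D1:**
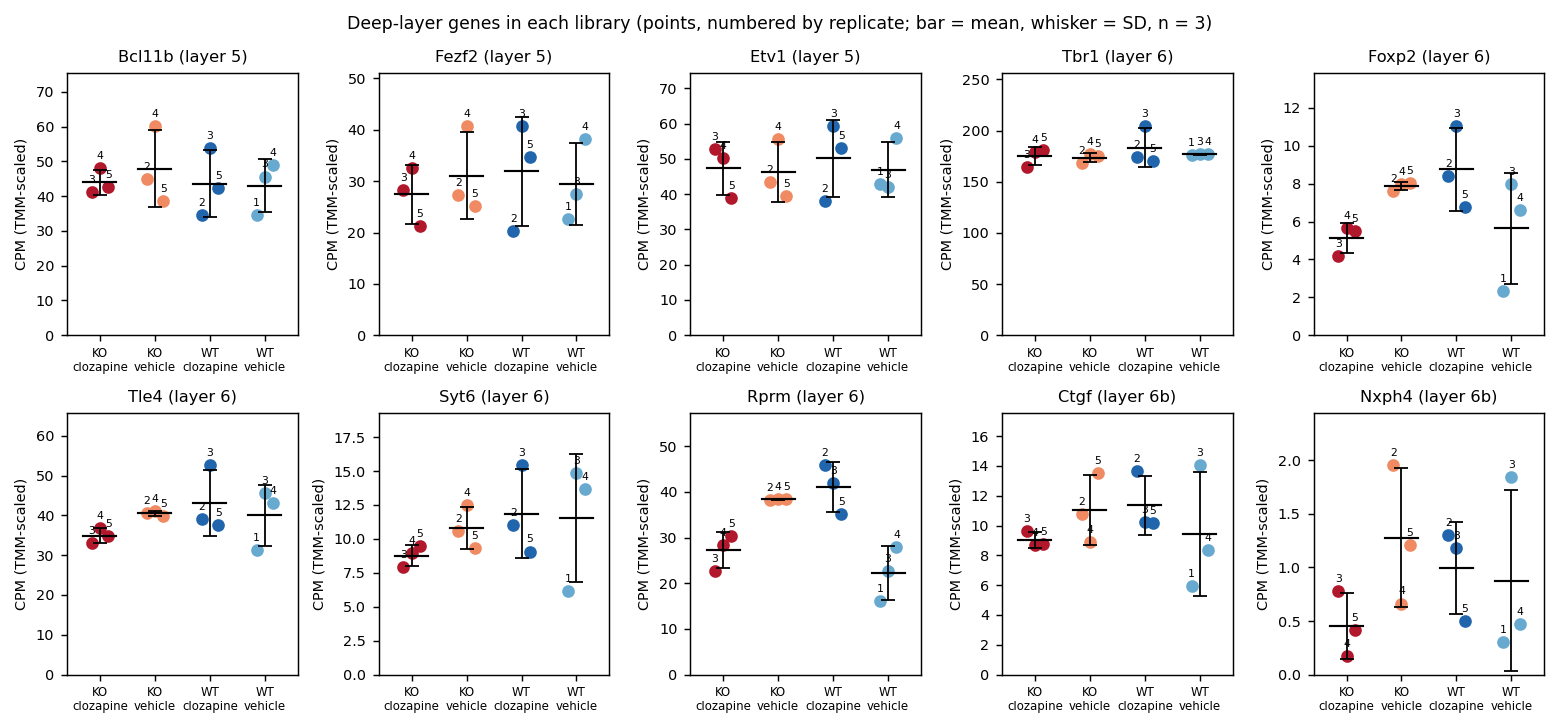
Level of each of the 10 deep-layer genes in every library, as CPM on TMM-scaled library sizes (y axis from 0), by group (x axis). Points are libraries numbered by replicate, the long bar is the mean and the whisker the SD of 3 libraries. Rprm stands at 38.2 to 38.5 CPM in labelled knockout vehicle libraries and at 16.2 to 27.9 CPM in wild-type vehicle libraries, while Tbr1 lies between 165 and 205 CPM throughout.

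Rprm encodes Reprimo, a small membrane protein first known as a target of p53 that arrests the cell cycle, and in adult cortex its RNA marks layer 6. The gene (ENSMUSG00000075334, GRCm38 chr2:54084093-54085552, minus strand) is a single exon of 1460 bases. Its level was 22.7, 28.5 and 30.4 CPM in labelled knockouts given clozapine and 38.2, 38.5 and 38.4 CPM in labelled knockouts given vehicle. In wild type it was 45.9, 42.0 and 35.2 CPM with clozapine and 16.2, 22.7 and 27.9 CPM with vehicle. The clozapine libraries were thus all below the vehicle libraries in the labelled knockout and all above them in wild type. The mean levels, with SD over 3 libraries, were 27.2 ± 3.97 CPM in labelled knockouts with clozapine, 38.3 ± 0.144 CPM in labelled knockouts with vehicle, 41.0 ± 5.42 CPM in wild type with clozapine and 22.2 ± 5.86 CPM in wild type with vehicle.

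From highest to lowest mean, the order was wild-type clozapine, labelled knockout vehicle, labelled knockout clozapine and wild-type vehicle. The libraries of the first and second of these groups overlap, and so do those of the third and the fourth, while no library of the upper pair falls within the lower pair. The log2 difference of clozapine against vehicle was 0.88 in wild type (SE 0.18, 95% interval 0.49 to 1.27) and -0.50 in the labelled knockout (SE 0.17, -0.88 to -0.11). Labelled knockout against wild type differed by 0.78 under vehicle (SE 0.18, 0.39 to 1.17) and by -0.59 under clozapine (SE 0.17, -0.98 to -0.21). These comparisons share libraries: the wild-type vehicle libraries enter both differences above 0. The interaction, which subtracts the wild-type clozapine effect from the labelled knockout's, was -1.38 (SE 0.25, 95% interval -1.93 to -0.83).

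Averaged over genotypes, the clozapine difference of Rprm was 0.19 (SE 0.12), and averaged over treatments the genotype difference was 0.09 (SE 0.12). Each average joins a positive and a negative difference, and without wild-type vehicle library 1 they were 0.10 and 0.01. With each library left out in turn, the log2 difference for clozapine in wild type lay between 0.70 and 1.07 and that in the labelled knockout between -0.59 and -0.38. The genotype difference lay between 0.61 and 0.98 under vehicle and between -0.69 and -0.48 under clozapine, and the interaction between -1.57 and -1.20. The values nearest 0 for clozapine in wild type, 0.70, and for genotype under vehicle, 0.61, came without wild-type vehicle library 1.

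**Figure D2:**
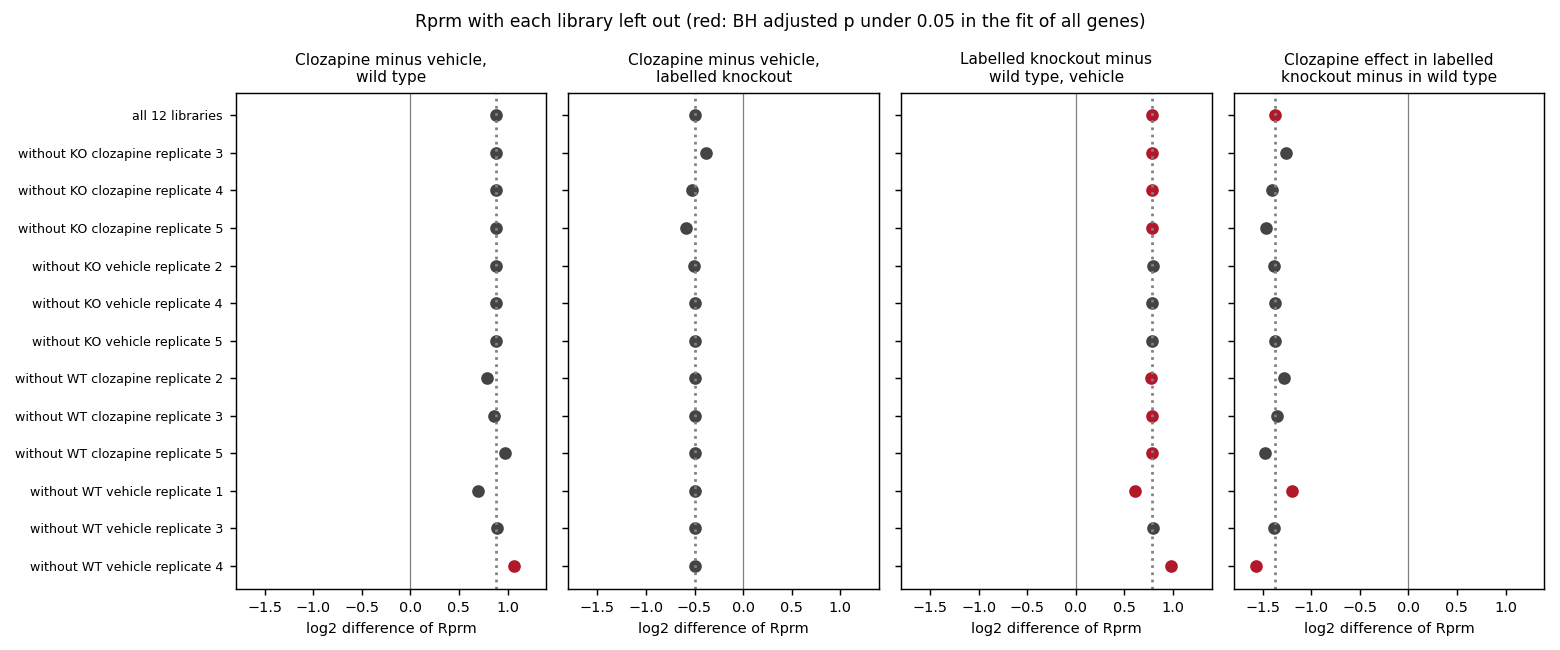
Log2 difference of Rprm (x axis) in 4 comparisons when each library in turn is left out of the fit (y axis, with all 12 libraries on top). Red points have an adjusted p under 0.05 in the fit of all genes and the dotted line is the value with all libraries. The differences keep their direction in all 12 refits, between -1.57 and -1.20 for the interaction, while the colour, which marks the threshold, comes and goes.

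Foxp2, a forkhead transcription factor of layer 6 corticothalamic neurons (ENSMUSG00000029563, chr6:14901349-15441977, plus strand), had its 2 highest group means where Rprm had them. It was at 4.202, 5.67 and 5.50 CPM in labelled knockouts with clozapine, 7.63, 7.96 and 8.03 CPM in labelled knockouts with vehicle, 8.41, 11.1 and 6.77 CPM in wild type with clozapine and 2.35, 7.996 and 6.58 CPM in wild type with vehicle. The 3 clozapine libraries of the labelled knockout were below all its vehicle libraries, whereas the wild-type groups overlap and rest on library 1 at 2.35 CPM. The log2 difference of clozapine against vehicle was -0.62 in the labelled knockout (SE 0.35, 95% interval -1.40 to 0.16) and 0.62 in wild type (SE 0.34, -0.15 to 1.39). The wild-type value was 0.26 without vehicle library 1 and 0.95 without vehicle library 3. The interaction of Foxp2 was -1.24 (SE 0.49, 95% interval -2.34 to -0.14), and lay between -1.57 and -0.89 with each library left out, nearest 0 without library 1.

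Tle4 encodes a Groucho-type co-repressor used by transcription factors of corticothalamic neurons (ENSMUSG00000024642, chr19:14448150-14598051, minus strand). Its level was 33.1, 36.9 and 34.8 CPM in labelled knockouts with clozapine, 40.7, 41.0 and 39.9 CPM in labelled knockouts with vehicle, 39.1, 52.7 and 37.6 CPM in wild type with clozapine and 31.3, 45.7 and 43.1 CPM in wild type with vehicle. The labelled knockouts given clozapine lay below the 3 labelled knockouts given vehicle and below the 3 wild types given clozapine. The log2 difference was -0.22 for clozapine in the labelled knockout (SE 0.14, 95% interval -0.54 to 0.10) and -0.30 for the labelled knockout against wild type under clozapine (SE 0.14, -0.62 to 0.01), and both intervals reach past 0. The difference under clozapine was -0.14 without wild-type clozapine library 3. In wild type its clozapine difference was 0.10 (SE 0.14), and changed sign to -0.04 without vehicle library 1 and to -0.07 without clozapine library 3.

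Syt6, a member of the synaptotagmin family of membrane-trafficking proteins (ENSMUSG00000027849, chr3:103575231-103645569, plus strand), had 7.91, 8.93 and 9.47 CPM in labelled knockouts with clozapine and 10.6, 12.48 and 9.35 CPM in labelled knockouts with vehicle. In wild type it had 11.0, 15.5 and 9.07 CPM with clozapine and 6.14, 14.8 and 13.6 CPM with vehicle. All groups overlap their neighbours, and the log2 difference of clozapine against vehicle was -0.30 in the labelled knockout (SE 0.31) and 0.03 in wild type (SE 0.30), the second at -0.27 without wild-type vehicle library 1 and at 0.25 without wild-type vehicle library 3. The first was -0.18 without labelled knockout vehicle library 4. Atg4a-ps on the opposite strand shares 505 exon bases with Syt6, so its counts are uncertain where strand was not used.

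Tbr1, the T-box factor that specifies layer 6 (ENSMUSG00000035033, chr2:61802930-61814114, plus strand), was the steadiest of the 10. It was at 165, 179 and 181 CPM in labelled knockouts with clozapine, 168, 177 and 175 CPM in labelled knockouts with vehicle, 174, 205 and 170.5 CPM in wild type with clozapine and 176, 177 and 177 CPM in wild type with vehicle. All groups overlap, and its log2 differences in the 4 pairwise comparisons lay between -0.07 and 0.05, each with an SE of 0.06, and between -0.12 and 0.10 with each library left out. The 95% interval of its interaction, -0.23 to 0.15, is the narrowest among the 10 genes.

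The layer 5 genes varied more within groups than their group means differed. Fezf2, the zinc-finger factor at the head of the layer 5 programme (ENSMUSG00000021743, chr14:12342094-12348189, minus strand), had 28.3, 32.6 and 21.4 CPM in labelled knockouts with clozapine, 27.3, 40.8 and 25.2 CPM in labelled knockouts with vehicle, 20.2, 40.8 and 34.6 CPM in wild type with clozapine and 22.7, 27.5 and 38.2 CPM in wild type with vehicle. Every group of Fezf2 overlaps every other. Bcl11b, also known as CTIP2, a zinc-finger factor that guides corticospinal axons (ENSMUSG00000048251, chr12:107910403-108003602, minus strand), had 41.1, 48.1 and 42.6 CPM in labelled knockouts with clozapine, 45.0, 60.3 and 38.5 CPM in labelled knockouts with vehicle, 34.5, 53.8 and 42.5 CPM in wild type with clozapine and 34.5, 45.6 and 48.9 CPM in wild type with vehicle. Etv1, an ETS transcription factor also called ER81 (ENSMUSG00000004151, chr12:38779380-38870484, plus strand), had 52.9, 50.3 and 38.9 CPM in labelled knockouts with clozapine, 43.4, 55.7 and 39.5 CPM in labelled knockouts with vehicle, 38.2, 59.4 and 53.1 CPM in wild type with clozapine and 42.9, 42.0 and 55.9 CPM in wild type with vehicle. In all 3 genes the difference between libraries of 1 group exceeds any difference between group means. Their log2 interactions were -0.29 (SE 0.45) for Fezf2, -0.14 (SE 0.29) for Bcl11b and -0.06 (SE 0.29) for Etv1. With each library left out they lay between -0.53 and -0.05 for Fezf2, -0.28 and 0.06 for Bcl11b and -0.22 and 0.10 for Etv1, with the upper value in all 3 without labelled knockout vehicle library 4.

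Ctgf, which encodes a secreted matrix protein and marks layer 6b (ENSMUSG00000019997, chr10:24595442-24598683, plus strand), had 9.64, 8.71 and 8.77 CPM in labelled knockouts with clozapine, 10.8, 8.88 and 13.5 CPM in labelled knockouts with vehicle, 13.7, 10.2 and 10.2 CPM in wild type with clozapine and 5.92, 14.1 and 8.33 CPM in wild type with vehicle. Under clozapine the labelled knockouts were all below the wild types, with a log2 difference of -0.33 (SE 0.28, 95% interval -0.95 to 0.30), and of -0.17 without wild-type clozapine library 2. Its clozapine difference in wild type was 0.26, but 0.02 without vehicle library 1 and 0.67 without vehicle library 3. In the labelled knockout its clozapine difference was -0.30, and -0.12 without vehicle library 5. Gm15270 on the opposite strand shares 665 exon bases with Ctgf, which makes its counts uncertain in the same way as those of Syt6. Nxph4, a neurexophilin that binds neurexins at synapses (ENSMUSG00000040258, chr10:127525473-127534559, minus strand), had only 4 to 48 counts per library. It stood at 0.783, 0.169 and 0.414 CPM in labelled knockouts with clozapine, 1.96, 0.664 and 1.21 CPM in labelled knockouts with vehicle, 1.303, 1.182 and 0.501 CPM in wild type with clozapine and 0.305, 1.84 and 0.476 CPM in wild type with vehicle. Its log2 differences are the largest in size, -1.47 (SE 0.74) for clozapine in the labelled knockout and -1.63 (SE 1.01) for the interaction, but all groups overlap and both 95% intervals include 0. The interaction lay between -2.80, without wild-type vehicle library 3, and -1.21 with each library left out.

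Mean levels over the 12 libraries are given per kilobase of all annotated exons, 1460 bases for Rprm and 16346 bases for Foxp2. Annotated exons that the cortex does not use would lower a gene's value, so the order may partly follow the annotation. Tbr1 was highest at 32.3 ± 1.80 CPM per kilobase (SD, n = 12), followed by Rprm at 22.1 ± 6.12, Fezf2 at 9.84 ± 2.41, Tle4 at 6.96 ± 1.02 and Bcl11b at 5.50 ± 0.928 CPM per kilobase. Etv1 at 3.59 ± 0.575 and Ctgf at 3.57 ± 0.859 CPM per kilobase do not differ beyond their spread. Syt6 had 1.84 ± 0.489, Nxph4 0.538 ± 0.355 and Foxp2 0.419 ± 0.137 CPM per kilobase, and the last pair overlap. The single short exon of Rprm places it second per kilobase although 4 of the 10 genes had more CPM.

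9 of the 10 genes varied more between libraries of a group than the typical gene. The within-group SD of log2 CPM was 0.99 for Nxph4, 0.52 for Foxp2, 0.42 for Syt6, 0.41 for Fezf2, 0.37 for Ctgf, 0.27 for Bcl11b and Etv1, 0.25 for Rprm and 0.20 for Tle4, where the median of 17286 tested genes was 0.12. Tbr1, at 0.08, was below that median, and 30.1% of tested genes had a smaller SD.

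**Figure D3:**
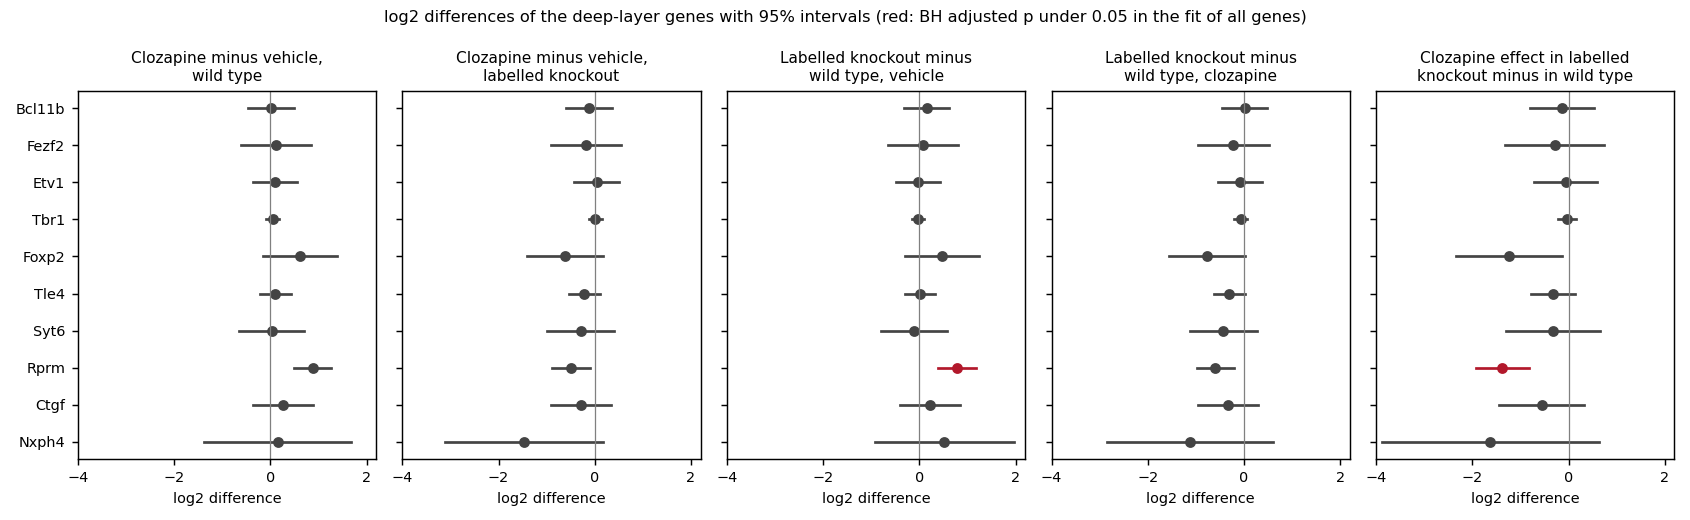
Log2 difference (x axis) of each deep-layer gene (rows) in the 4 pairwise comparisons and the interaction, with 95% intervals from the fit of 12 libraries. Red marks an adjusted p under 0.05 over all 17286 genes tested. Only Rprm is red, at 0.78 for labelled knockout against wild type under vehicle and at -1.38 for the interaction, and all 10 interaction values lie below 0.

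All 10 genes passed the filter on low counts. In the tests below a gene counts as called when its Benjamini-Hochberg adjusted p over all tested genes is under 0.05 in edgeR's quasi-likelihood test. For clozapine against vehicle in wild type, 0 of the 10 were called, where 0.816% of all tested genes were. Rprm alone had an unadjusted p under 0.05, as had 11.6% of all genes, and alone of the 10 was higher without overlap, as were 7.34%. In this comparison all 5 red blood cell genes were also higher without overlap, by 0.83 to 0.94 log2 units, with sums of 212, 437 and 219 CPM in wild type with clozapine against 138 to 180.4 CPM with vehicle. Their part in the deep-layer values was not tested. DESeq2 and limma-voom each called 1, Rprm, where they called 288 and 130 of all 17286 genes. All 10 log2 differences were above 0 with a median of 0.11, where 51.4% of all genes were above 0 and their median was 0.005. In the 7 comparisons the median of all genes lay between -0.007 and 0.005. Without wild-type vehicle library 1, 5 of the 10 were above 0 and the median was -0.01, and without wild-type clozapine library 3, 4 were above 0 and the median was -0.04.

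For clozapine against vehicle in the labelled knockout, 0 of the 10 were called, where 0.0231% of all genes were. Rprm was the only one with an unadjusted p under 0.05, as had 12.2% of all genes. DESeq2 called 1, Rprm, and limma-voom called 0, where they called 274 and 2 of all 17286 genes. Foxp2, Tle4 and Rprm were lower without overlap, as were 8.97% of all genes. Below 0 stood 8 of the 10 log2 differences, with a median of -0.26, where 50.7% of all genes were below 0. With each of the 6 labelled knockout libraries left out, 6 to 10 were below 0, with medians of -0.29 to -0.19. The 6 came without vehicle library 4, where Bcl11b was at 0.08 and Fezf2 at 0.06.

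For the labelled knockout against wild type under vehicle, 1 of the 10 was called, Rprm as higher, where 9.16% of all genes were called. Rprm was also the only one higher without overlap, as were 13.2% of all genes. 7 of the 10 log2 differences were above 0, against 50.9% of all genes, with a median of 0.11. Without wild-type vehicle library 1, 4 were above 0 and the median was -0.01, and without labelled knockout vehicle library 4, 5 were and it was -0.02. The call of Rprm was lost, at an almost unchanged difference of 0.78 to 0.79, without any 1 of the 3 labelled knockout vehicle libraries or without wild-type vehicle library 3.

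For the labelled knockout against wild type under clozapine, 0 of the 10 were called, where 2.0% of all genes were. Rprm had an unadjusted p under 0.05, as had 15.9% of all genes. DESeq2 called 1, Rprm, and limma-voom called 0, where they called 560 and 311 of all 17286 genes. Without wild-type vehicle library 1, which is in neither group but shares the estimate of spread, 2 were called, Rprm and Foxp2. In that refit 405 of 17517 genes were called, against 345 of 17286 with all libraries. Foxp2, Tle4, Rprm and Ctgf were lower without overlap, as were 10.7% of all genes. Below 0 stood 9 of the 10, with a median of -0.32, against 51.3% of all genes, and without wild-type clozapine library 3 it was 7 with a median of -0.17.

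In the interaction, 1 of the 10 was called, Rprm as lower, where 0.654% of all genes were called. Rprm and Foxp2 had an unadjusted p under 0.05, as had 13.6% of all genes. All 10 values were below 0, against 51.5% of all genes, with a median of -0.32. Without wild-type vehicle library 1 all 10 were still below 0 with a median of -0.16, and without wild-type clozapine library 3, 7 were with a median of -0.12. In the other 10 refits with a library left out it was 8 to 10. The call of Rprm held in only 2 of 12 refits that leave out a library, those without wild-type vehicle library 1 or 4. Averaged over genotypes, clozapine gave 0 calls and 0 unadjusted p under 0.05 among the 10, where 0.150% of all genes were called and 11.2% had such a p. Averaged over treatments, the genotype likewise gave 0 and 0, where 10.5% of all genes were called and 25.5% had such a p, and DESeq2 and limma-voom called 0 in both averages.

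Some genes of the same layer moved together across the 12 libraries. The correlations of log2 CPM are a description, since all points share libraries and 4 groups. In layer 5, Fezf2 and Etv1 had a Pearson r of 0.93 (Spearman 0.95), and Fezf2 and Bcl11b 0.85 (0.80). In layer 6, Tle4 and Syt6 had 0.93 (0.93), Foxp2 and Tle4 0.85 (0.77), and Foxp2 and Rprm 0.84 (0.76). After taking out the 4 group means, these 5 values were 0.96, 0.89, 0.93, 0.91 and 0.81. Leaving out the 2 libraries farthest from the median of the first gene gave 0.89 for Fezf2 and Etv1, 0.81 for Bcl11b and Fezf2, 0.90 for Tle4 and Syt6 and 0.83 for Foxp2 and Tle4, but 0.54 for Foxp2 and Rprm, a pair at 0.68 without wild-type vehicle library 1.

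The r of Rprm with the layer 5 genes was 0.28 for Bcl11b, 0.20 for Fezf2 and 0.05 for Etv1. With the layer 6 genes it was 0.84 for Foxp2, 0.53 for Tle4, 0.49 for Syt6 and 0.25 for Tbr1, the last below the value for Bcl11b. With the layer 6b genes it was 0.56 for Ctgf and 0.42 for Nxph4. Leaving out wild-type vehicle library 1 gave an r of Rprm of 0.30 with Tle4, 0.14 with Syt6, 0.32 with Tbr1, 0.21 with Ctgf and -0.05 with Bcl11b. Ctgf and Nxph4, the layer 6b pair, had an r of 0.76 (Spearman 0.90). The median r over pairs was 0.85 within layer 5 (3 pairs), 0.58 within layer 6 (10 pairs, 0.25 to 0.93) and 0.36 between layers (31 pairs, -0.34 to 0.74).

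**Figure D4:**
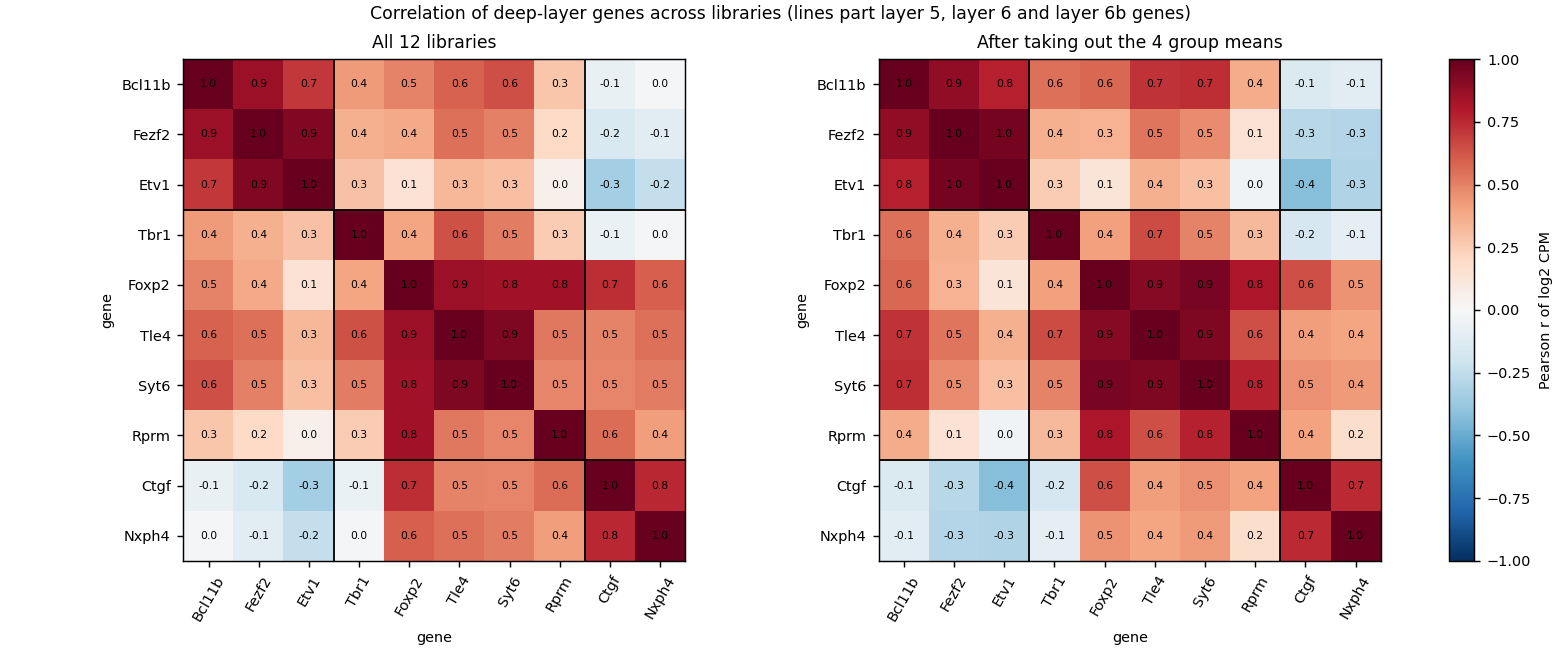
Pearson r of log2 CPM between each pair of deep-layer genes (rows and columns, colour from -1 to 1, value in each cell), over 12 libraries on the left and after subtracting the 4 group means on the right. Black lines part the layer 5, layer 6 and layer 6b genes. The layer 5 block is at 0.71 to 0.93 and the layer 6 block at 0.25 to 0.93, while Etv1 and Ctgf are at -0.34.

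Other genes with a symbol and a mean of at least 1 CPM were compared with Rprm. Predicted genes, clone names, mitochondrial genes and pseudogenes were left out. Among the 13216 that remained, the 8 whose log2 CPM went most closely with Rprm over the 12 libraries were Myh3 (Pearson r 0.91), Cbln1 (0.89), Ntng1 (0.86), Carhsp1 (0.86), Slc26a4 (0.85), Psip1 (0.85), Glra2 (0.85) and Qpctl (0.84). Myh3 encodes a myosin heavy chain at 1.48 to 4.18 CPM, Cbln1 a secreted synapse organiser at 0.958 to 3.19 CPM and Ntng1 netrin-G1, an axon guidance protein, at 12.4 to 18.8 CPM. They were picked from many genes for likeness, so the size of r has no test.

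22 further deep-layer genes that are not among the 10, from transcription factors such as Sox5 to receptors such as Ntsr1, were all tested. Their list too was drawn up with earlier results of these data known. In labelled knockouts against wild type under vehicle, 2 of 22 rose and 0 fell, a share near the 9.16% of all tested genes called there. Rbp4, which encodes the retinol-binding protein whose Cre line labels layer 5, was at 14.3, 14.1 and 12.6 CPM in labelled knockouts with vehicle and 8.53, 9.61 and 10.8 CPM in wild type with vehicle. The labelled knockouts were all higher, by 0.50 log2 units (SE 0.11, edgeR quasi-likelihood adjusted p = 0.011). Ntsr1, the neurotensin receptor that marks layer 6 corticothalamic neurons, was at 5.06, 5.47 and 5.47 CPM in labelled knockouts with vehicle and 1.78, 3.69 and 3.65 CPM in wild type with vehicle. It too was higher in all 3, by 0.80 log2 units (SE 0.19, edgeR quasi-likelihood adjusted p = 0.016). The median over the 22 was 0.20, with 16 above 0 where 50.9% of all genes were, and without wild-type vehicle library 1 it was 0.095 with 14 above 0. Both calls held with each of the 12 libraries left out.

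In the 2 clozapine comparisons, the genotype comparison under clozapine and the interaction, the further deep-layer genes gave 0 calls by edgeR. With clozapine in wild type, 0 of 22 passed edgeR's test and 2 had an unadjusted p under 0.05, as had 11.6% of all genes. DESeq2 called 1 of the 22, Npr3, and 288 of all 17286 genes. Npr3, a natriuretic peptide receptor, was at 14.1, 16.1 and 14.8 CPM with clozapine and 10.5, 11.5 and 12.53 CPM with vehicle in wild type, a log2 difference of 0.38 (edgeR quasi-likelihood adjusted p = 0.073). Tshz2, a zinc-finger gene, differed by 0.57 (edgeR adjusted p = 0.40), with 2.35 CPM in library 2 and 5.87 and 5.98 CPM in libraries 3 and 5 with clozapine, against 3.00 to 3.37 CPM with vehicle. Without that clozapine library 2, Tshz2 was called at 0.89, and it was at 0.36 without clozapine library 5. With clozapine in the labelled knockout, 0 of 22 passed and 4 had an unadjusted p under 0.05, as had 12.2% of all genes. Lower without overlap were 4, as were 8.97% of all genes. Below 0 stood 16 of 22 with a median of -0.14, where 50.7% of all genes were below 0. With each labelled knockout library left out, 15 to 17 were below 0.

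Nxph3, a neurexophilin of layer 6b, had 12.3, 14.1 and 15.1 CPM with clozapine and 22.1, 22.6 and 18.5 CPM with vehicle in the labelled knockout. The groups do not overlap, and the log2 difference was -0.60 (SE 0.22, edgeR quasi-likelihood adjusted p = 0.31). Ntsr1 differed by -0.47 in the same comparison (SE 0.18, edgeR quasi-likelihood adjusted p = 0.31), with 3.83, 3.98 and 3.76 CPM under clozapine against 5.06 to 5.47 CPM under vehicle. In labelled knockouts against wild type under clozapine, 0 of 22 passed and 0 had an unadjusted p under 0.05, where 15.9% of all genes had. The smallest adjusted p values by edgeR's quasi-likelihood test were 0.34 for Nxph3 at -0.48 and 0.37 for Vat1l at 0.37. In the interaction 0 of 22 passed and 4 had an unadjusted p under 0.05, as had 13.6% of all genes. The number below 0 was 17 of 22, where 51.5% of all genes were, with a median of -0.21. Without wild-type vehicle library 1 it was 15 with a median of -0.14, without wild-type clozapine library 3, 16 with -0.11, and without wild-type vehicle library 4, 18 with -0.34. Ntsr1 was at -0.67 (SE 0.27, edgeR adjusted p = 0.29), or -0.42 without wild-type vehicle library 1, and Nxph3 at -0.78 (SE 0.31, edgeR adjusted p = 0.32). DESeq2 and limma-voom gave 0 calls in these 3 comparisons.

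Averaged over treatments, Rbp4 (0.33, edgeR quasi-likelihood adjusted p = 0.015) and Ntsr1 (0.46, edgeR quasi-likelihood adjusted p = 0.039) were higher in labelled knockouts, Ntsr1 in only 3 of 12 refits with a library left out. Averaged over genotypes, 0 of 22 passed for clozapine and 1 had an unadjusted p under 0.05, as had 11.2% of all genes. The smallest p values were those of Npr3 at 0.24 (edgeR adjusted p = 0.17) and Parm1 at 0.12 (edgeR adjusted p = 0.45), the second at 0.07 without labelled knockout vehicle library 5. DESeq2 and limma-voom called 0 there.

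Upper-layer genes mark neurons that project within the cortex, and 12 of them were tested beside the deep-layer genes. This list was also drawn up with earlier results of these data known, so its calls are given as a description. Under vehicle, 4 of the 12 fell in labelled knockouts against wild type and 0 rose, where 9.16% of all genes were called. With wild-type vehicle library 1 left out, which had the highest upper-layer sum, 2 fell, and 8 of 12 were below 0 with a median of -0.04, against 11 and -0.14 with all libraries. In that refit 954 of 17517 genes were called. Cux2, a homeobox factor of layers above layer 5, was at 162, 158 and 147.5 CPM in labelled knockouts with vehicle and 208, 200.5 and 175 CPM in wild type with vehicle (log2 difference -0.32, SE 0.06, edgeR adjusted p = 0.0056). Otof, encoding otoferlin, was at 16.6, 20.6 and 15.7 CPM in those labelled knockouts and 25.0, 27.0 and 28 CPM in wild type (-0.60, SE 0.10, edgeR adjusted p = 0.0023). Rasgrf2, an exchange factor for Ras, differed by -0.23 (SE 0.06, edgeR adjusted p = 0.025) and Mdga1, a cell adhesion gene, by -0.54 (SE 0.14, edgeR adjusted p = 0.031). Rasgrf2 and Mdga1 lost their call in 3 and 4 of 12 refits with a library left out, both without wild-type vehicle library 1, where Rasgrf2 was at -0.14. The count was also 2 without labelled knockout vehicle library 2 or 5, where 837 of 17507 and 943 of 17485 genes were called.

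With clozapine Cux2, 1 of the 12, fell in wild type, where 0.816% of all genes were called, to 169, 152 and 155 CPM against 208, 200.5 and 175 CPM with vehicle (-0.29, SE 0.06, edgeR adjusted p = 0.042), a call lost in 8 of 12 refits with a library left out. In the labelled knockout, clozapine libraries had 197, 190.3 and 195 CPM of Cux2 and vehicle libraries 162, 158 and 147.5 CPM, a log2 difference of 0.32 (edgeR quasi-likelihood adjusted p = 0.073). There 0 of 12 upper-layer genes passed edgeR's test and 5 had an unadjusted p under 0.05, as had 12.2% of all genes. Higher without overlap were 6, as were 9.72% of all genes. Under clozapine Cux2 rose in labelled knockouts against wild type by 0.29 (edgeR quasi-likelihood adjusted p = 0.028), a call lost in 5 of 12 refits. Its interaction was 0.61 (SE 0.09, edgeR quasi-likelihood adjusted p = 0.0080) and held in 12 of 12 refits. For genotype averaged over treatments, Otof alone of the 12 was called, at -0.29 (SE 0.07, edgeR quasi-likelihood adjusted p = 0.018). There 10.5% of all genes were called. All 12 upper-layer genes had interaction values above 0, where 48.5% of all genes did, and they did so in each of the 12 refits, with a median of 0.25, or 0.17 without wild-type vehicle library 1. With all libraries all 10 deep-layer genes were below 0, but 7 without wild-type clozapine library 3. This difference between the lists was not tested.

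**Figure D5:**
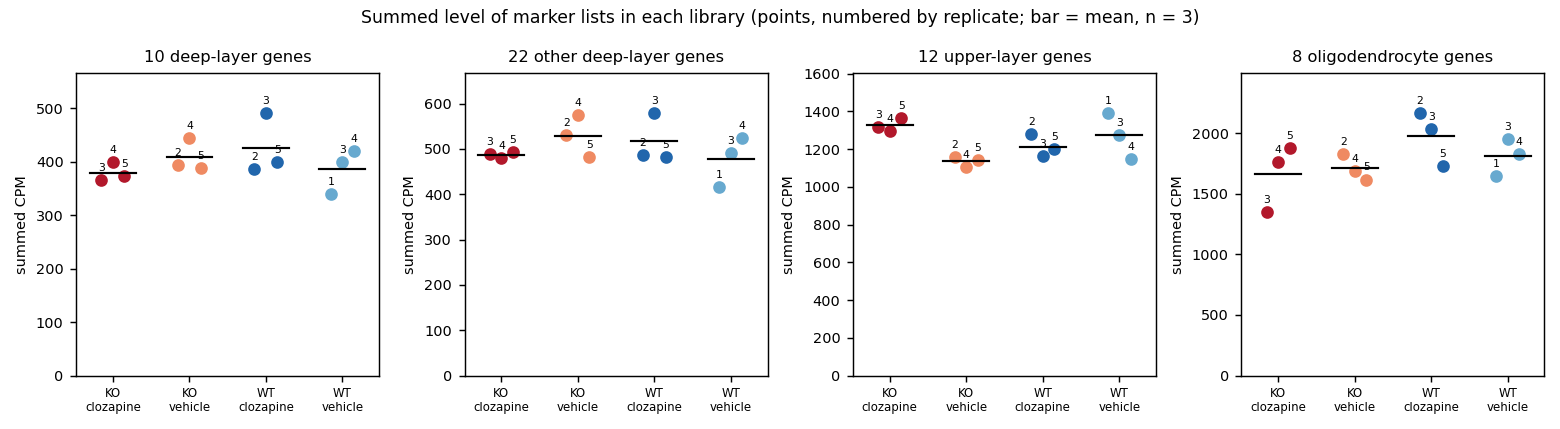
Summed CPM (y axis from 0) of the 10 deep-layer genes, the 22 further deep-layer genes, 12 upper-layer genes and 8 oligodendrocyte genes in each library by group (x axis). Points are libraries numbered by replicate and bars are means of 3. Upper-layer sums are 1294 to 1363 CPM in labelled knockouts with clozapine and 1105 to 1157 CPM in labelled knockouts with vehicle, and sums of the 10 deep-layer genes overlap among all groups. Tbr1 is the largest part of the sums of the 10.

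The summed level of the 10 genes was 365 to 399 CPM in labelled knockouts with clozapine, 389 to 443 CPM in labelled knockouts with vehicle, 387 to 491 CPM in wild type with clozapine and 338 to 420 CPM in wild type with vehicle, and these ranges overlap. Tbr1 alone gave 165 to 205 CPM of these sums, so their overlap says little about the genes at lower levels. Upper-layer sums were 1294 to 1363 CPM, 1105 to 1157 CPM, 1162 to 1280 CPM and 1149 to 1393 CPM in the same order of groups. Oligodendrocyte sums, a sign of white matter in the dissection, were 1354 to 1877 CPM, 1619 to 1833 CPM, 1733 to 2171 CPM and 1647 to 1954 CPM. The 8 striatal genes summed to 236 to 285 CPM, 228 to 247 CPM, 215 to 252 CPM and 217 to 270 CPM, with Drd2 and Six3 under 1 CPM in every group mean. Claustrum genes summed to 69.0 to 79.8 CPM, 68.7 to 85.5 CPM, 55.2 to 87.2 CPM and 67.7 to 68.7 CPM. Oprk1, a receptor gene and 1 of 4 claustrum genes, rose by 1.72 log2 units in labelled knockouts against wild type under vehicle (edgeR quasi-likelihood adjusted p = 0.038). The rest of that list did not pass there, with Gnb4 at 0.41, Lxn at -0.05 and Ntng2 at -0.09 (edgeR quasi-likelihood adjusted p = 0.38, 0.83 and 0.67). The part that the depth of the dissection or other cells play in the levels of Rprm and its companions was not tested.

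Relatives and partners of the 10 genes were looked at by list, and these lists were drawn up with earlier results of these data known. Of 19 paralogs, 16 were tested. Of all genes, 9.16% were called for genotype under vehicle, 2.0% under clozapine and 10.5% averaged over treatments. The share was 0.816% for clozapine in wild type and 0.654% in the interaction. Tle3, a co-repressor like Tle4, was at 68.2, 70.0 and 69.0 CPM in labelled knockouts and 45.2, 51.0 and 51.4 CPM in wild type under clozapine, and rose by 0.49 (SE 0.05, edgeR adjusted p = 2e-04). In wild type these clozapine values stood against 61.7, 59.9 and 59.8 CPM under vehicle, and Tle3 fell (-0.30, edgeR adjusted p = 0.016), a call lost without wild-type vehicle library 1 or 3. Its interaction was 0.45 (edgeR adjusted p = 0.018, held in 9 of 12 refits), the opposite sign to Tle4 at -0.32, or -0.15 without wild-type clozapine library 3. Tle1 rose by 0.36 in labelled knockouts under clozapine (edgeR adjusted p = 0.0098), a call lost in 2 of 12 refits. Under vehicle Foxp4 rose in labelled knockouts by 0.42 (edgeR adjusted p = 0.016) and Foxp1 fell by 0.27 (edgeR adjusted p = 0.025), calls lost in 2 and 5 of 12 refits. Averaged over treatments Tle1, Tle3 and Foxp4 rose, by 0.29, 0.26 and 0.33 (edgeR adjusted p = 0.0011, 0.00048 and 0.0068).

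Of 12 genes of p53 and its targets, to which Rprm belongs in other cells, 11 were tested. In labelled knockouts against wild type under vehicle 1 of the 11 was called, a share near the 9.16% of all genes. This was Zmat3, an RNA-binding target of p53, which fell by 0.26 (edgeR adjusted p = 0.0079). Averaged over treatments Ccng1, which encodes cyclin G1, fell by 0.27 (edgeR adjusted p = 0.0064) and Phlda3 rose by 0.19 (edgeR adjusted p = 0.016), where 10.5% of all genes were called. No gene of this list passed for clozapine in either genotype, where 1 of 11 in wild type and 3 of 11 in the labelled knockout had an unadjusted p under 0.05. Of all genes, 11.6% in wild type and 12.2% in the labelled knockout had such a p. Of 6 neurexins and neurexophilins, the binding partners and relatives of Nxph4, Nrxn2 rose by 0.38 in labelled knockouts against wild type under clozapine (edgeR adjusted p = 0.0046) and by 0.23 averaged over treatments (edgeR adjusted p = 0.0031). Of 10 regulators of layer identity, Ski, a transcriptional co-repressor, rose by 0.20 under clozapine (edgeR adjusted p = 0.036) and had an interaction of 0.31 (edgeR adjusted p = 0.041), both lost in at least 6 of 12 refits. Of 10 genes of the YAP pathway, which drives Ctgf in other cells, 9 were tested and 0 passed edgeR's test in any of the 7 comparisons, with 0 to 3 of 9 at an unadjusted p under 0.05 and a smallest adjusted p of 0.12.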

How the data were processed

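RNA of 12 frontal cortex libraries was measured by sequencing. Per the submitters' processing notes the authors used STAR 2.5.1b, featureCounts and GRCm38, and they deposited estimated counts for each gene. Between 3356 and 3596 of them per library were not whole, and all were rounded for the tests. Strand use and the sharing of reads between genes are not given in the sources used here.

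Symbols came from GENCODE M21 (GRCm38) for 46574 of 47069 identifiers. filterByExpr kept 17286 genes and 99.9% of counts. 1 fit of all 12 libraries in edgeR 4.0.16 (R 4.3.3; TMM, robust quasi-likelihood, Benjamini-Hochberg over all tested genes, threshold 0.05) gave 7 comparisons, with 8 residual degrees of freedom. CPM are counts over TMM-scaled library sizes, and intervals of 95% come from the fit. Levels per kilobase use the summed exon length. The procedure was tested on simulated data. Replicates differ by more than counting error.

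The 10 genes and all lists were chosen with earlier results of these data known. The text names all 10. Of the pathway and upper-layer lists it names genes past the threshold (up to 6 by smallest p) and, for the further deep-layer genes, the 2 of smallest p where none passed. The 8 genes most like Rprm were taken by Pearson r. Results for some genes of the lists are not reported here.

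Alternatives were RLE size factors, DESeq2 1.42.0, limma-voom (limma 3.58.1), 2 other filters, a replicate block, 1 surrogate variable (sva 3.50.0), unrounded counts, a length and GC correction, fits of only the groups compared, and each library left out.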

Additional observations from a re-analysis of the deposited data

Results flagged for a closer look

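3 of the genes named above other than the 10 passed the threshold in the test of a clozapine effect that differs between genotypes. Their lists were drawn up with earlier results of these data known, so these values are given as a description. The clozapine effect of the labelled knockout, less the wild-type effect, was 0.61 on the log2 scale for Cux2, an upper-layer gene, 0.45 for Tle3, a paralog of Tle4, and 0.31 for Ski, a regulator of layer identity. The call held with each library left out for Cux2, in 9 of 12 such refits for Tle3 and in 3 of 12 for Ski. These refits reuse the same libraries.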

How the results depend on the processing

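No log2 difference of a called gene changed sign under any alternative. The labels do not say whether the replicate numbers pair the libraries. Deviations of 10 same-numbered pairs correlated at -0.09 to 0.11, with 1 over 0.1. These values show no strong pairing, but with 3 libraries in a group they cannot show that a weak one is absent. Under the replicate block the 10 genes gave 1 call for clozapine in the labelled knockout (Nxph4), 0 for genotype under vehicle, 1 for genotype under clozapine (Rprm), 0 in the interaction and 1 for averaged clozapine (Nxph4). Of all 17286 genes the block called 174, 385, 328, 12 and 61 in the same order. The main fit called 4, 1584, 345, 113 and 26. Rprm under the block was at 0.52 for genotype under vehicle and -1.11 in the interaction. Number 1 occurs only in wild-type vehicle library 1, so the block fits that library exactly and takes it out of these values. It also leaves fewer residual degrees of freedom. Leaving that library out with no block gave 0.61 and -1.20. The further deep-layer genes gave 1 (Nxph3), 0 and 1 (Nxph3) call in the first 3 comparisons under the block. They gave 1 (Rbp4) for averaged genotype, where the block called 1289 of 17286 genes.

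With no low-count filter the 10 genes gave 0 calls for genotype under vehicle and 0 in the interaction, and the further genes 1 for clozapine in wild type (Npr3). Of 29376 genes, 1697, 302 and 304 were called in these comparisons. The length and GC correction gave 0 calls among the 10 in the interaction, where 42 of 17286 genes were called. For clozapine in wild type a mean of at least 1 CPM, limma-voom and DESeq2 each called 1 of the 10, Rprm. They called 161 of 14979, 130 of 17286 and 288 of 17286 genes there, and DESeq2 added 1 further gene, Npr3. DESeq2 also called Rprm, 1 each, for clozapine in the labelled knockout and genotype under clozapine. It called 274 and 560 of all 17286 genes in those comparisons. With 1 surrogate variable the further genes gave 2 calls for clozapine in wild type, 4 for genotype under vehicle and 4 for averaged genotype. Of all 17286 genes, 201, 2098 and 2369 were called there. Fits of only the groups compared gave 1 (Rbp4) for genotype under vehicle and 1 (Nxph3) under clozapine. In these fits 1095 of 16891 and 362 of 16733 genes were called. The causes were not tested.

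Leaving out each library gave, among the 10, 0 to 1 call for clozapine in wild type, 0 to 1 for genotype under vehicle, 0 to 2 under clozapine and 0 to 1 in the interaction. Among the further genes it gave 0 to 1 for clozapine in each genotype, in the interaction and for genotype under clozapine, 2 to 3 under vehicle and 1 to 3 averaged. The totals over all genes also moved between these refits. They were 20 to 219 for clozapine in wild type, 0 to 25 in the labelled knockout and 13 to 181 in the interaction. For genotype they were 617 to 1722 under vehicle, 59 to 425 under clozapine and 1152 to 1870 averaged. Depth limits Nxph4, with 4 to 48 counts, most.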
